A study of Homo sapiens with 6 samples.

Results

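The serpins are a superfamily of proteins that share one fold and take their name from their role as serine protease inhibitors. They were taken here as every gene whose symbol begins with SERPIN, with 1 probe set per gene, and 33 such genes were measured of 18417 genes in all. The arrays compare HCT116, a long-established cell line from a human colorectal carcinoma, with a line derived from it. The parental group has 3 arrays of HCT116 labelled with the parental genotype, and the mutant group has 3 arrays of the derived line, whose genotype label says that it carries altered DNA methylation. The mutated gene is not named in the labels. Both lines were grown in the same McCoy's 5A medium with serum, and total RNA was hybridised to Affymetrix whole-transcript arrays. The labels do not say whether the mutant arrays represent 1 clone or several, so the mutation and other differences between the 2 lines cannot be told apart. Values are log2 expression after robust multi-array average (RMA) processing, in which the probe intensities of all arrays are given one distribution. With no detection call in the table, a probe set with a mean below 7, close to the array medians of 6.88 to 6.93, is called dim here, and RMA compresses differences between dim values.

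An inhibitory serpin works as a trap that is used once. The target protease cuts an exposed reactive loop, the loop inserts into the body of the serpin, and the protease is left distorted and covalently bound. The clades are lettered A to I in humans. Clade A holds secreted liver proteins such as alpha-1 antitrypsin, clade B holds intracellular serpins that often protect cells from their own or from foreign proteases, and the remaining clades include regulators of clotting, fibrinolysis, complement and collagen folding. Some members inhibit nothing and act as hormone carriers or chaperones.

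The colon epithelial identity of the line was checked with 12 markers. EPCAM, KRT8, KRT18, KRT19, CDH1 and CDX2 were bright in the parental line (means of 12.15, 13.32, 12.71, 12.45, 10.20 and 8.52), whereas VIL1, KRT20, GPA33 and CDH17 were dim in both lines. In the mutant 4 of the 12 markers were lower, KRT8, KRT18, KRT19 and CDH1, a share called of 33.3% beside 25.9% of all genes. All 4 are among the 7 markers with a mean of at least 7, and 36.5% of all genes that bright were called. The mean level over the 12 ran from 8.74 to 8.77 in the parental arrays and from 8.41 to 8.54 in the mutant arrays, and the part of this shift in the serpin results was not tested. Limma called none of 12 hepatocyte, 11 leukocyte and 9 squamous markers (0, 1 and 2 of them had an unadjusted p under 0.05), and 2 of 12 fibroblast markers (16.7%), PDGFRB (0.27) and FBLN1 (0.36), were higher. PDGFRB was dim in both lines (6.06 and 6.33). Only 1 hepatocyte, 2 leukocyte, 2 squamous and 2 fibroblast markers had a mean of at least 7. Of all genes with a mean under 7, 9.52% were called, and these counts are not read as results. ALB, the defining hepatocyte gene, had means of 3.94 and 3.88, and PTPRC, the defining leukocyte gene, 3.72 and 3.73.

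Of the 33 serpin genes 3 rose and 5 fell in the mutant, and 25 did not pass the test (limma's moderated test, Benjamini-Hochberg adjusted p under 0.05 over all probe sets). SERPING1, SERPINB8 and SERPINH1 rose. SERPINA1, SERPINI1, SERPINA5, SERPINB13 and SERPINB5 fell. The share called, 24.2%, lay close to the 25.9% of all genes that were called, of which 14.6% were higher and 11.3% lower. This share near the background is no result about the serpins as a family. The median difference, mutant minus parental, was -0.05 over the serpins and 0.0034 over all genes. Groups of arrays did not overlap for 12 of the 33, or 36.4%, against 45.8% of all genes. A called change of at least 1.5-fold was seen in 4 serpins, SERPING1, SERPINB8, SERPINA1 and SERPINI1, where 7.22% of all genes had one. No serpin changed by as much as 2-fold; fitted differences ran from -0.78 to 0.87. Tested against a minimum fold of 1.2, only SERPING1, SERPINB8 and SERPINA1 of the 8 stayed called, and limma adjusted p-values were 0.0904 for SERPINI1, 0.105 for SERPINH1, 0.219 for SERPINA5 and 1 for SERPINB13 and SERPINB5.

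Brightness was uneven within the family. Only 7 of the 33 serpins had a mean of at least 7 over the 6 arrays, and 4 of these were called (3 higher, 1 lower). Among all genes that bright, 36.5% were called. Of the 26 dimmer serpins 4 were called, all lower, and of all such genes 9.52% were called.

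**Figure D1:**
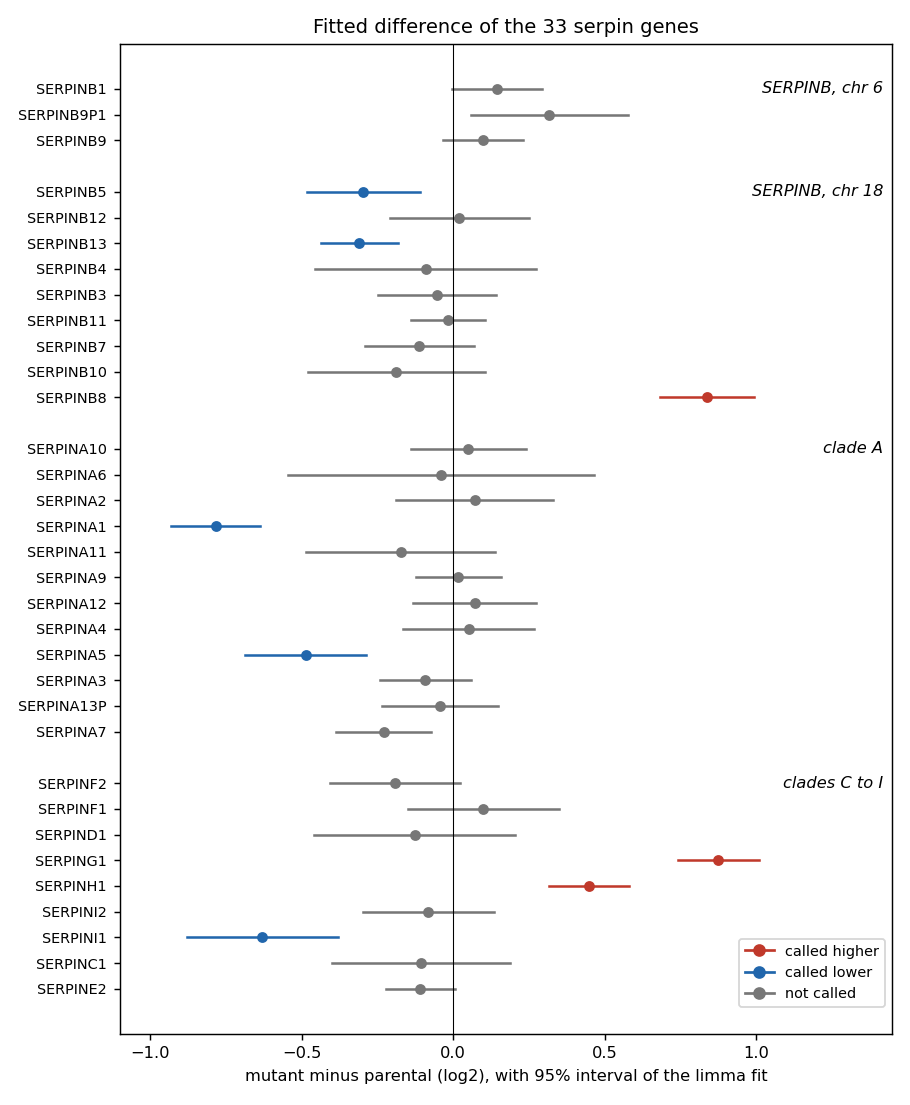
Fitted difference between mutant and parental cells for each of the 33 serpin genes (horizontal axis, log2; bars, 95% interval of the fit), grouped by cluster and clade in chromosome order. The 3 called increases lie between 0.45 and 0.87 and the 5 called decreases between -0.30 and -0.78, and most other members lie near 0.

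Because the mutant is described as altered in DNA methylation, which in human cells falls mainly on the cytosine of CpG dinucleotides, the CpG content of serpin promoters is shown beside the expression data. Methylation itself was not analysed here. RefSeq promoter windows (GRCh38.p14) were matched for 24 of the 33 genes, and the 250 bases before the first listed gene start were used. Some genes list several starts, SERPINA1 and SERPINH1 among those printed, and the first listed is not always the outermost. The SERPINB12 and SERPINE2 windows lie inside their genes. Shown here are SERPINB5 and SERPINB8, the 2 members of the chromosome 18 cluster that are not dim, SERPINB9, the most CpG-rich window of the family, and SERPINA1 and SERPINH1, called genes of other clades. They read 5′ to 3′ towards the gene, with every CpG in capitals.
SERPINB5 (chr18:63476708-63476957, plus strand): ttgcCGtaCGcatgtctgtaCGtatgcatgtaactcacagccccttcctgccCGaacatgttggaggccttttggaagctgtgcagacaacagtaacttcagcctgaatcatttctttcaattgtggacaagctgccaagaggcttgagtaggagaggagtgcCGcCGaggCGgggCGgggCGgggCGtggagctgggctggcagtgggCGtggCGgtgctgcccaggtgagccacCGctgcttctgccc
SERPINB8 (chr18:63969831-63970080, plus strand): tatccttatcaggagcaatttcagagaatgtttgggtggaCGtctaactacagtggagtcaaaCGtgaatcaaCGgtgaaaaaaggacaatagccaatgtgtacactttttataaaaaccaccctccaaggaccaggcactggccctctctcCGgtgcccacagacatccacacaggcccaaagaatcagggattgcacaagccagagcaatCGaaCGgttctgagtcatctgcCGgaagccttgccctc
SERPINB9 (chr6:2903310-2903559, minus strand): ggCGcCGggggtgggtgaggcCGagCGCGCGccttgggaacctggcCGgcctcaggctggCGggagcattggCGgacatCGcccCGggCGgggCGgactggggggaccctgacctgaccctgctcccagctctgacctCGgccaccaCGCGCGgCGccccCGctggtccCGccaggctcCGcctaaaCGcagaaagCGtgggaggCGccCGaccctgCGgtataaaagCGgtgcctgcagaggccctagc
SERPINA1 (chr14:94390636-94390885, minus strand): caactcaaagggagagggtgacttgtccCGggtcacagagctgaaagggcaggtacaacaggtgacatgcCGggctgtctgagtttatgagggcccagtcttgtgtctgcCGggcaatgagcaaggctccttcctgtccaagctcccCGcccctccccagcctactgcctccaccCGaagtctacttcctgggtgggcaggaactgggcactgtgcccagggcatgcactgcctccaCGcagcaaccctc
SERPINH1 (chr11:75562003-75562252, plus strand): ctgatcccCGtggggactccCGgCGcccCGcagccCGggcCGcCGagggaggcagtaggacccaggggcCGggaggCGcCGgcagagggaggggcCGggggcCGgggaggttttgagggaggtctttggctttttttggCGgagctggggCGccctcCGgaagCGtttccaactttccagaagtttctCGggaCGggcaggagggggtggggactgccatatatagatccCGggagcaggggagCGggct

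SERPINB9 held the most CpG dinucleotides of any matched serpin, 27 in 250 bases. Of all promoter windows of this length in the table, 17.7% held at least as many. SERPINH1 had 20 (32.4%), SERPINB5 13 (46.6%), SERPINB8 7 (58.9%) and SERPINA1 6 (61.9%). In SERPINB5, 9 of the 13 lie in the 125 bases nearest the start and 4 in the 125 bases farther away. The median serpin window had 4 CpGs, against 11 over all 35116 windows, which can include several for a gene. The clusters differed: both matched chromosome 6 genes were CpG-rich (21 in SERPINB1 and 27 in SERPINB9), while the 7 matched chromosome 18 genes had between 1 and 13, with a median of 3. The 15 matched genes of other clades had between 0 and 20, with a median of 4. SERPING1 was not among the matched genes, so 7 of the 8 called genes have a count. The called increases had 7 and 20 (SERPINB8, SERPINH1) and the called decreases 4, 6, 8, 9 and 13 (SERPINB13, SERPINA1, SERPINA5, SERPINI1, SERPINB5). These counts are descriptions of the reference sequence and say nothing of its methylation in these cells.

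A second pattern was searched because SERPINH1 is a known heat shock gene. The motif GAANNTTC, a pair of heat shock factor units facing each other, which reads the same on both strands, was present in 3 of the 24 serpin windows and in 5.78% of all windows. SERPINH1 carries it as GAAGTTTC, beginning 71 bases before the start, SERPINB7 as GAATTTTC and SERPINA11 as GAATATTC. A match of letters is not evidence of binding.

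The 3 measured SERPINB genes of chromosome 6 lie close together near the end of the short arm. RefSeq lists 2 further protein-coding clade B genes that are not analysed here, so the SERPINB clusters as described may be incomplete. SERPINB1 inhibits neutrophil elastase and related proteases inside the cell, SERPINB9 inhibits granzyme B, the death-inducing protease of cytotoxic lymphocytes, and SERPINB9P1 is a transcribed pseudogene of SERPINB9 that may share probes with it. None of the 3 was called by limma (1 of 3, SERPINB9P1, had an unadjusted p under 0.05), although all 3 had fitted differences above 0, with a median of 0.15. For genes of chromosome 6 in general 26.5% were called.

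SERPINB1 (probe set 8123598) read 10.15, 10.22 and 10.23 in the parental arrays and 10.42, 10.34 and 10.26 in the mutant arrays. The mutant values all lay above the parental ones, but by little. The difference was 0.15 ± 0.06 (SE, n = 3 each), with a 95% interval of -0.0022 to 0.29 and a limma adjusted p of 0.174. SERPINB9 (probe set 8123609) read 10.59, 10.61 and 10.66 in parental cells and 10.78, 10.73 and 10.65 in the mutant, and the groups overlapped. Its difference was 0.10 (95% interval -0.03 to 0.23; limma adjusted p = 0.299), so a change larger than 0.23 lies outside the interval. SERPINB9P1 read 6.62, 6.37 and 6.68 against 7.02, 6.77 and 6.84, without overlap, for a difference of 0.32 (limma adjusted p = 0.0971).

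On chromosome 18, 9 measured clade B genes stand in a row on the long arm, and 1 rose, 2 fell and 6 did not pass. Genes of chromosome 18 were called in 38.3% of cases, and 66 of the 101 called were lower. The median difference of the 9 serpins was -0.09, against -0.04 for the 264 genes of the chromosome. Within the row, only SERPINB5 at its one end and SERPINB8 at its other end had a mean of at least 7, and they moved in opposite directions.

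SERPINB8, an intracellular inhibitor of the proprotein convertase furin (probe set 8021653), read 7.98, 7.97 and 8.12 in the parental arrays and 8.87, 8.80 and 8.92 in the mutant arrays. All 3 mutant values stood well above all 3 parental values. The mean rose from 8.02 ± 0.08 to 8.86 ± 0.06 (SD, n = 3 each), a difference of 0.84 or 1.79-fold (limma adjusted p = 0.000513). SERPINB5, known as maspin, is an epithelial serpin that does not inhibit proteases by the usual trap and is studied as a tumour suppressor (probe set 8021584). It read 9.43, 9.33 and 9.37 in parental cells and 9.23, 8.98 and 9.04 in the mutant. The groups were apart, with mutant replicate 1 closest to the parental values. The fall was 1.23-fold, a difference of -0.30 ± 0.08 (SE, n = 3 each; limma adjusted p = 0.0458), just inside the threshold. This call was lost when any one array other than mutant replicate 1 was left out, with limma adjusted p-values of 0.129, 0.095 and 0.11 without parental replicates 1, 2 and 3 and 0.131 and 0.126 without mutant replicates 2 and 3.

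SERPINB13, called headpin and known as an inhibitor of lysosomal cathepsins in squamous epithelium (probe set 8021603), read 4.74, 4.75 and 4.64 in the parental arrays and 4.38, 4.39 and 4.44 in the mutant arrays. The separation was clean but took place at a dim level, where the gene may not be expressed in either line. The difference was -0.31 ± 0.05 (SE, n = 3 each; limma adjusted p = 0.0103), and the call was lost when the spread was fitted with an intensity trend (limma adjusted p = 0.0516). The remaining 6 genes of the row were dim as well, with group means between 3.09 and 4.38. They comprise the squamous cell carcinoma antigens SERPINB3 and SERPINB4, near-identical copies whose probes may not separate them, and SERPINB7, SERPINB10, SERPINB11 and SERPINB12. Their differences ran from -0.19 for SERPINB10 to 0.02 for SERPINB12.

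**Figure D2:**
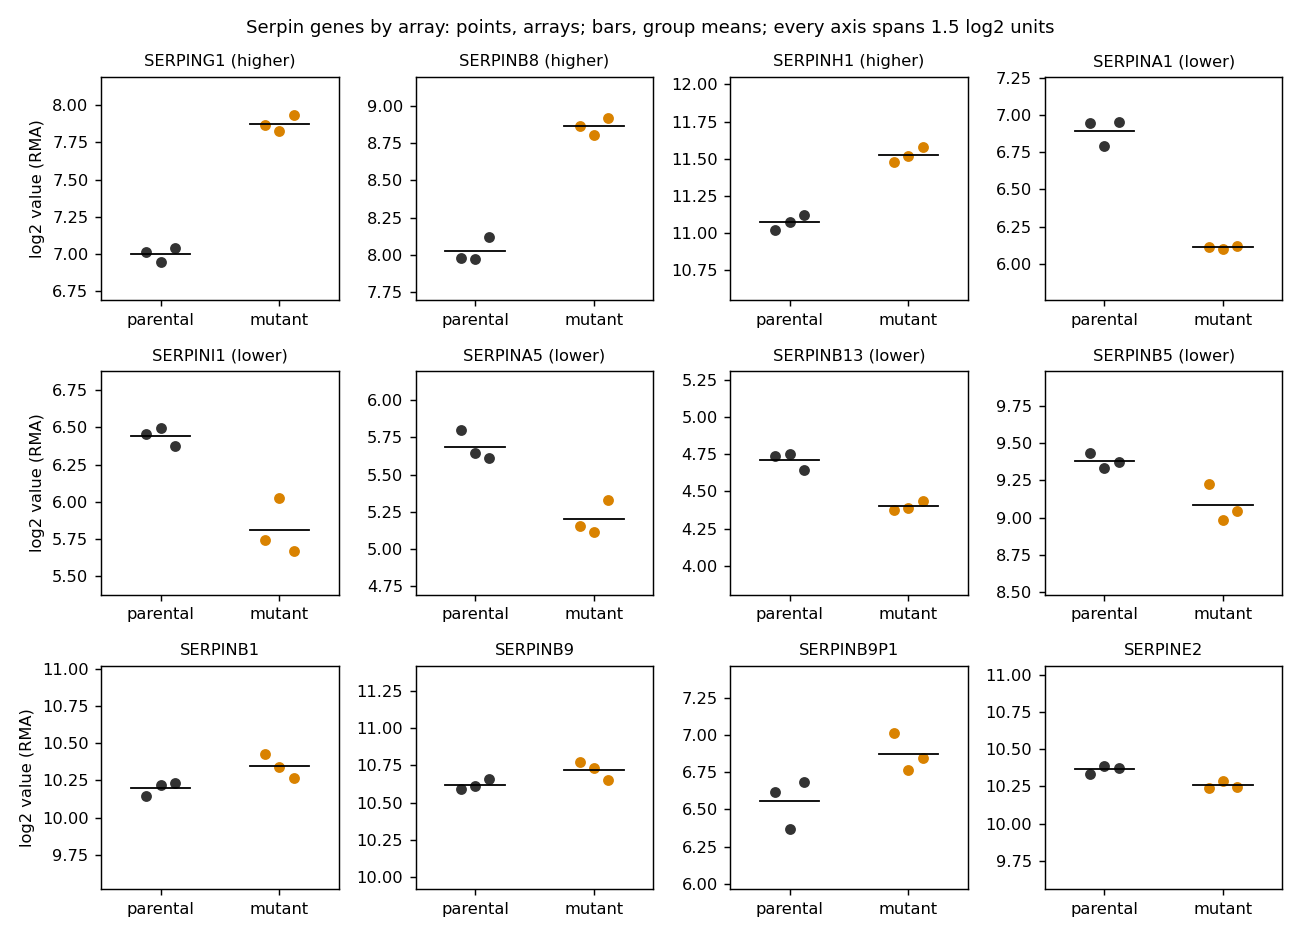
Log2 value on each array for 12 serpin genes (points, arrays; bars, group means; 3 arrays a group; each vertical axis spans 1.5 log2 units). Groups separate in the 8 called genes of the upper rows. None of the bottom row was called, although SERPINB1, SERPINB9P1 and SERPINE2 do not overlap either, and SERPINB9 overlaps.

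The genes around each cluster give its chromosomal setting. On chromosome 18 the 5 measured genes on each side of the row ran from ZCCHC2 and BCL2 to CDH7 and TMX3. Limma called 0 of these 10 at the adjusted threshold, beside 38.3% of the genes of the chromosome. An unadjusted p under 0.05 was seen in 3 of them, PHLPP1, BCL2 and KDSR. The median difference of the 10 was -0.04. VPS4B, next to SERPINB5, changed by -0.05 (limma adjusted p = 0.694), and LINC00305, next to SERPINB8, by -0.21 (limma adjusted p = 0.420). LINC00305 was dim in both lines (4.10 and 3.89), as were CDH7, CDH19 and DSEL on the same side. Of all genes with a mean under 7, 9.52% were called. SERPINB8 and SERPINB5 thus passed the test while the genes nearest to them did not; the difference between neighbours was not tested. On chromosome 6, 2 of the 10 neighbours rose and 1 fell, with a median of 0.09, where 26.5% of the genes of the chromosome were called. Neither count of neighbours is read as a result about them. BPHL, a hydrolase gene, rose by 0.85, MYLK4 rose by 0.66 and NQO2, a quinone reductase gene, fell by 0.28 (limma adjusted p = 0.0448), while the 3 serpins between them were not called. The MYLK4 and NQO2 calls were each lost without some single arrays: MYLK4 without mutant replicate 2, mutant replicate 3 or parental replicate 3, and NQO2 without any one array other than mutant replicate 3.

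**Figure D3:**
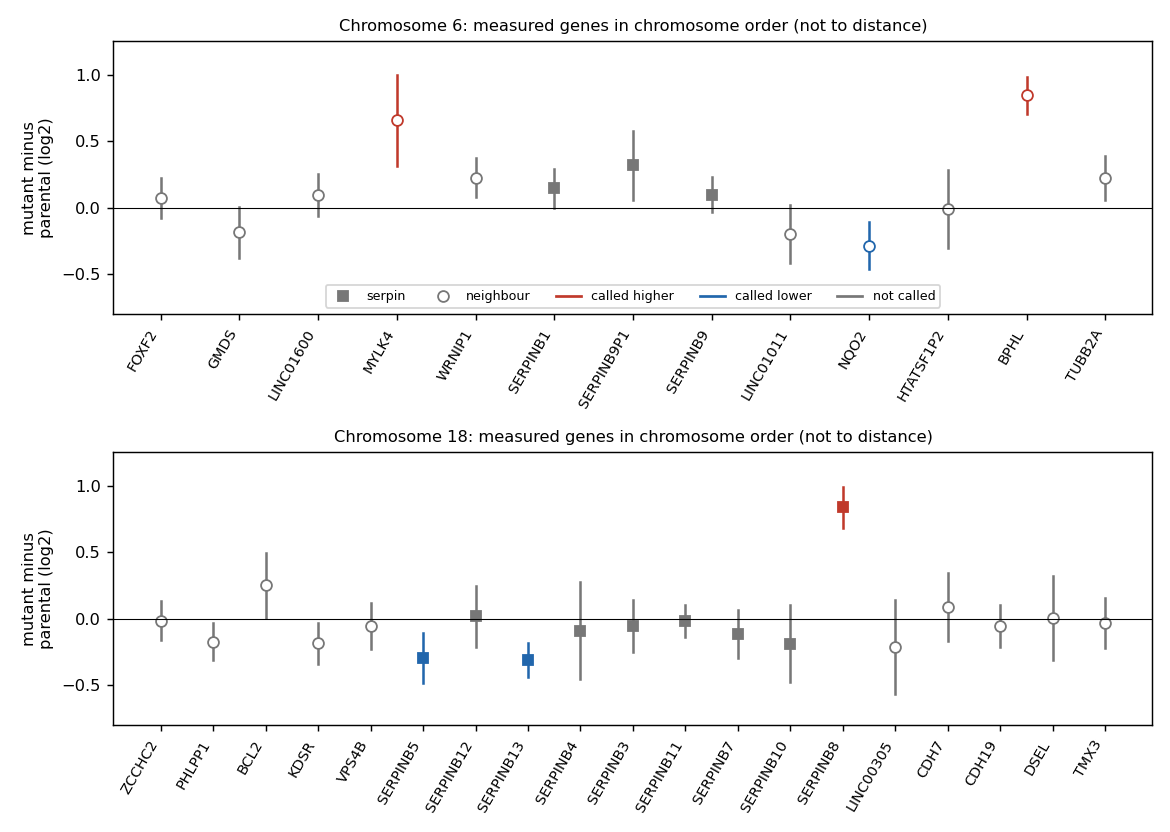
Fitted difference (vertical axis, log2; bars, 95% interval) of the SERPINB genes of chromosomes 6 and 18 and the 5 measured genes on each side, in chromosome order and not to distance. On chromosome 18 the called genes are SERPINB5, SERPINB13 and SERPINB8; on chromosome 6 they are MYLK4, NQO2 and BPHL, none of them a serpin.

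Outside clade B, 2 of 21 serpins rose and 3 fell, with a median difference of -0.08. The share called, 23.8%, lay near the 25.9% of all genes and is no result about these clades. SERPING1 had the largest increase of the family. It encodes C1 inhibitor, which restrains the first complement proteases and plasma kallikrein (probe set 7940028). Its values were 7.02, 6.94 and 7.04 in the parental arrays and 7.87, 7.83 and 7.93 in the mutant arrays. The gap between groups was many times the spread within either. It rose by 0.87 ± 0.06 (SE, n = 3 each), or 1.83-fold (limma adjusted p = 0.000272).

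SERPINH1 encodes HSP47, a collagen chaperone of the endoplasmic reticulum that inhibits no protease (probe set 7942596). It was bright in both lines, with 11.02, 11.08 and 11.12 in parental cells and 11.48, 11.52 and 11.58 in the mutant. The groups did not overlap and the rise was 0.45 ± 0.05 (SE, n = 3 each), or 1.37-fold (limma adjusted p = 0.00279). SERPINE2, or protease nexin-1, an inhibitor of thrombin and urokinase, was bright as well, with 10.33, 10.39 and 10.37 against 10.24, 10.29 and 10.25. Its mutant values were all slightly lower, yet the difference of -0.11 did not pass (95% interval -0.22 to 0.01; limma adjusted p = 0.189).

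SERPINI1 encodes neuroserpin, an inhibitor of tissue plasminogen activator best known from neurons (probe set 8083779). It read 6.45, 6.50 and 6.37 in the parental arrays and 5.74, 6.03 and 5.67 in the mutant arrays. The groups were apart and mutant replicate 2 was the highest of the mutant arrays. It fell by 0.63 on the log2 scale, or 1.55-fold (limma adjusted p = 0.00842). SERPINI1 was dim in both lines, with means of 6.44 and 5.81. Its neighbour in name, SERPINI2, was dimmer still, with means of 3.92 and 3.84, and did not pass (limma adjusted p = 0.628).

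Of the 12 clade A genes 2 fell, 0 rose and 10 did not pass. All 12 had a mean under 7, and 16.7% of them were called beside 9.52% of all genes that dim and 25.9% of all genes. SERPINA1 encodes alpha-1 antitrypsin, the main inhibitor of neutrophil elastase in plasma, and is made by hepatocytes and also by intestinal epithelium (probe set 7981068). It read 6.94, 6.79 and 6.95 in parental cells and 6.11, 6.10 and 6.12 in the mutant. The mutant arrays were nearly identical and all lay below the parental arrays. It fell by 0.78 on the log2 scale, or 1.72-fold (SE 0.06, n = 3 each; limma adjusted p = 0.000538), the largest decrease among the 33. SERPINA5, the protein C inhibitor (probe set 7976488), read 5.80, 5.65 and 5.61 against 5.16, 5.11 and 5.33, without overlap. It fell by 0.49 on the log2 scale (limma adjusted p = 0.00995). Both genes are dim in both lines.

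The other clade A genes showed no called change. SERPINA7, the thyroxine carrier of chromosome X, came closest, at -0.23 (limma adjusted p = 0.0582) on a very dim probe set with means of 3.45 and 3.22. SERPINA3 (antichymotrypsin), SERPINA4 (kallistatin), SERPINA6 (the cortisol carrier), SERPINA9, SERPINA10, SERPINA11, SERPINA12 (vaspin) and SERPINA2 and SERPINA13P, both annotated as transcribed pseudogenes, had differences between -0.17 and 0.07. SERPINA6 had the widest spread of the family because mutant replicate 2 read 4.78, while the other two mutant arrays read 5.55 and 5.49. Among the plasma inhibitors of clotting and fibrinolysis, SERPINC1 (antithrombin), SERPIND1 (heparin cofactor II) and SERPINF2 (antiplasmin) gave -0.11, -0.13 and -0.19. SERPINF1, the pigment epithelium-derived factor, gave 0.10. Limma adjusted p-values of these genes ran from 0.212 to 0.645. All of them were dim, with a mean under 7 over the 6 arrays.

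The 3 groups of serpins can be set side by side. Over 3 measured SERPINB genes of chromosome 6, 9 of chromosome 18 and 21 of other clades, median differences were 0.15, -0.09 and -0.08. The called genes numbered 0, 3 and 5. With the dim members left out, the chromosome 18 median rests on SERPINB5 and SERPINB8 alone and becomes 0.27, and that of the other clades rests on SERPINE2, SERPING1 and SERPINH1 and becomes 0.45. The sign of both medians therefore turned with the filter on dim probe sets. The difference between the groups was not tested, and single members went both ways in the chromosome 18 row and in the other clades.

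Some of the proteases, cofactors and other inhibitors that work beside serpins changed by more than any serpin did. Of 37 measured serine proteases or their precursors, which are known or close relatives of known serpin targets, 4 rose, 7 fell and 26 did not pass (median -0.05). The share called, 29.7%, lay near the 25.9% of all genes, so the count is no result about the list. PLAU, which encodes urokinase, the plasminogen activator restrained by SERPINE2 and SERPINA5, read 9.37, 9.35 and 9.43 in parental cells and 10.47, 10.43 and 10.54 in the mutant. It rose 2.15-fold (limma adjusted p = 0.000124). KLKB1, plasma prekallikrein, whose active form is held by C1 inhibitor, rose by 1.16 from a dim mean of 4.37, and PCSK6, a relative of furin, rose by 0.71. PRSS3, a trypsinogen with close copies that can share probes, fell by 1.06, the complement protease gene CFD by 0.74 and ST14, the epithelial membrane protease matriptase, by 0.64.

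Of 16 cathepsins and other lysosomal or cysteine proteases 4 rose and 4 fell, or 50% called, with 11 of the 16 at a mean of at least 7. Of all genes 25.9% were called, and of all genes that bright 36.5%. The count is not read as a result about the list. CTSH, an aminopeptidase of the lysosome, showed the largest change of the list, from 9.17, 9.07 and 9.02 to 6.15, 5.87 and 6.27, a fitted 7.95-fold fall (limma adjusted p = 4.62e-05) that ended among dim values. CAPN1, a calpain, fell by 0.59 and CTSB by 0.25, while CTSO, CTSC and LGMN rose by 0.95, 0.66 and 0.31; CTSO was dim in both lines (5.23 and 6.18). Of 21 cofactors, receptors and partners of the plasminogen system 5 rose and 7 fell. LMAN1, a lectin that carries glycoproteins including alpha-1 antitrypsin out of the endoplasmic reticulum, read 11.70, 11.72 and 11.73 in parental cells and 7.26, 7.26 and 7.27 in the mutant, a 21.9-fold fall (limma adjusted p = 3.84e-07). It lies on chromosome 18 as well. SORL1, a sorting receptor of the LDL receptor family, fell by 1.87 and PROCR, the protein C receptor, by 0.68. PLGRKT, PLXDC1, a receptor for SERPINF1, and S100A10, a docking protein for plasminogen, rose by 0.59, 0.54 and 0.36. The PLGRKT call was lost without any one of the mutant arrays.

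Among 39 protease inhibitors of other families 2 rose and 8 fell. The share called, 25.6%, was that of the background, 25.9% of all genes. TFPI, a Kunitz inhibitor of the tissue factor pathway, read 8.62, 8.37 and 8.44 in parental cells and 4.32, 4.06 and 4.54 in the mutant, a fitted 18-fold fall (limma adjusted p = 2.87e-05) that ended among dim values. The cystatin genes CST6 and CSTA fell by 1.36 and 0.86, CSTA at dim levels (6.32 and 5.46), whereas CSTB rose by 0.34 and PEBP1, a kinase and protease inhibitor, by 0.28; the PEBP1 call was lost without any one of the 6 arrays.

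Of 17 genes that fold, modify or export collagen with HSP47, 3 rose, 7 fell and 7 did not pass (median 0.04). FKBP10, a prolyl isomerase that acts with HSP47, read 10.07, 10.06 and 10.02 against 10.65, 10.68 and 10.67 and rose 1.53-fold (limma adjusted p = 0.000447). TMEM38B and MIA3, a collagen export factor, rose by 0.33 and 0.25. P4HB, the shared subunit of the prolyl 4-hydroxylases, fell by 0.50 (its second probe set by 0.63), P4HA1, a catalytic subunit, by 0.39 and P3H2, dim in both lines (6.65 and 6.23), by 0.41. The MIA3 call was lost without any one array other than parental replicate 3, and the P3H2 call without any one other than mutant replicate 1. FKBP10 thus rose as SERPINH1 did, while P4HB and P4HA1 fell. COL1A1, a collagen client of HSP47, changed by -0.17 without passing (limma adjusted p = 0.0614). The collagen genes COL1A2 and COL3A1, dim in both lines, changed by -0.04 and -0.09 (limma adjusted p = 0.781 and 0.528). Among 11 transcription factors of liver serpin expression 1 rose, NR5A2 (0.55), and 1 fell, ONECUT2 (-0.47). The share called was 58.8% in the collagen list, where 15 of 17 genes had a mean of at least 7, and 57.1% among cofactors and receptors, where 18 of 21 did, beside 36.5% of all genes that bright. In the regulator list, with 8 of 11 that bright, it was 18.2%. Nothing is read from these shares about the lists.

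**Figure D4:**
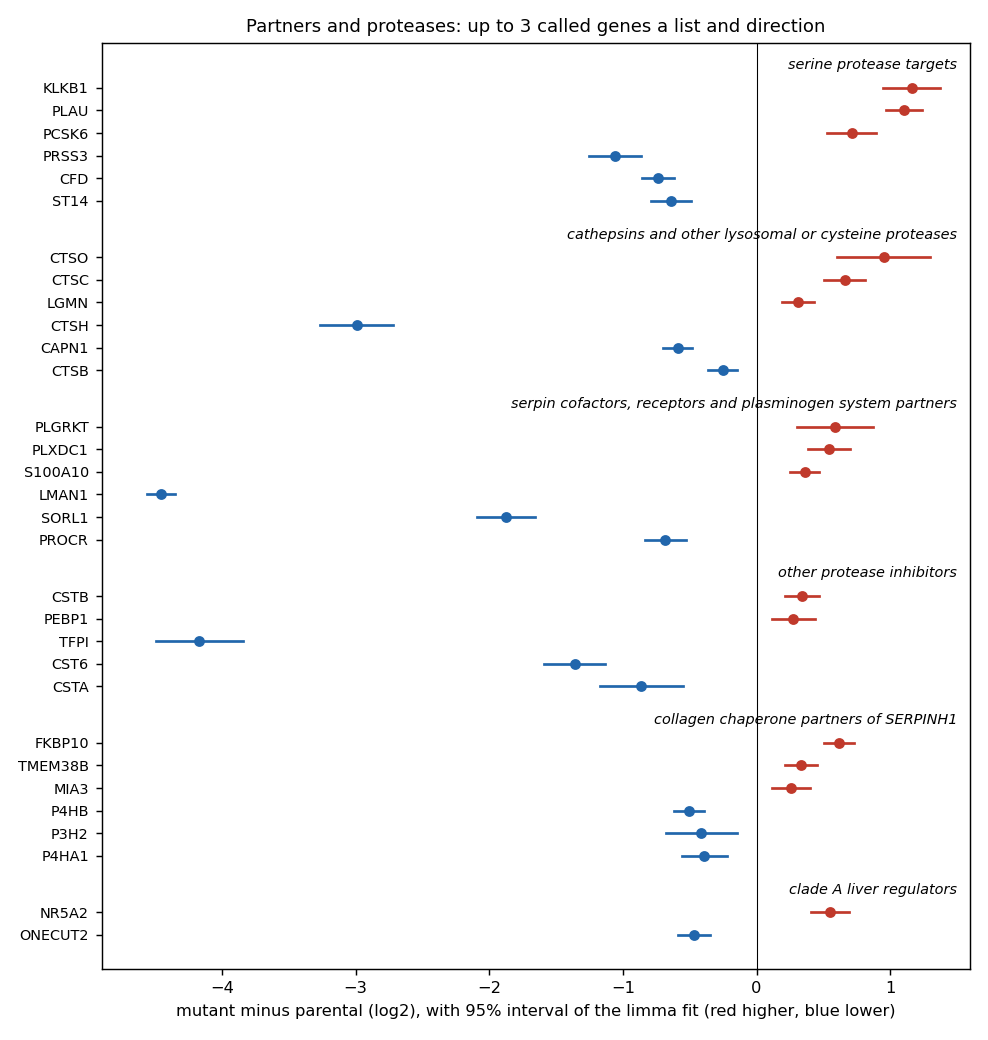
Fitted difference (horizontal axis, log2; bars, 95% interval) of up to 3 called genes per direction in each of 6 lists of proteases, cofactors, inhibitors, collagen chaperones and regulators. The falls of LMAN1 (-4.46), TFPI (-4.17) and CTSH (-2.99) extend far beyond the range of the serpins.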

How the data were processed

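Expression was measured on 6 arrays, 3 parental and 3 mutant, grouped by their titles. The deposited values are log2 expression per probe set, made by the authors; the submitters' processing notes name RMA and Partek, with no version. They were used as deposited. Of 33297 probe sets, 19460 have 1 symbol in the platform annotation, and each gene was represented by its brightest such probe set. Differences were fitted with limma 3.58.1 (lmFit, eBayes; R 4.3.3) without covariates, and p-values were adjusted over all probe sets. RefSeq tables (GRCh38.p14) gave gene order and promoter sequence; no source used here names the build behind the array annotation. The RefSeq table holds 4 further protein-coding serpin genes, 2 of clade B, that are not analysed here. Serpins, partner lists, marker lists and neighbours were chosen with earlier results of these data known. Named were all measured serpins, up to 3 called genes per list and direction, and 5 genes on each side of the SERPINB clusters; COL1A1 and other markers come from the marker lists. On simulated data for mutant against parental (33297 probe sets, 200 changed), 47.8% of 1.5-fold, 77.6% of 2-fold and 100% of 4-fold changes were recovered. In the real data a far larger share was called (4773 of 18417 genes). The adjustment is stricter when few probe sets change, so these rates do not measure recovery in the real comparison. The number of arrays limits precision. The labels do not tie the arrays to separate cultures. The p-values then reflect spread among these arrays alone, which may be technical. Alternatives were another normalization, filters, an intensity trend, array weights, a replicate block, a minimum fold of 1.2, other probe set choices and each array left out. Python 3.11.15 served for the remaining steps.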

Additional observations from a re-analysis of the deposited data

How the results depend on the processing

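The 3 serpins that rose stayed called in the 16 alternatives, except SERPINH1 under a minimum fold of 1.2, and SERPINA1 stayed called in the 14 that test it. The number of serpins lower, 5, became 1 with a minimum fold of 1.2, 1 with either filter on dim probe sets, which removes 4 of the 5 from the test, and 3 with the replicate number as a block. Leaving out 1 array gave 3 to 3 serpins higher and 4 to 5 lower. The arrays share only a number: deviations of same-numbered arrays correlated at 0.0428, -0.0135 and 0.00274, and the block moved the genes called from 4773 to 3395. SERPINB5 (limma adjusted p = 0.0524) and SERPINB13 (limma adjusted p = 0.0522) were lost under the block, and SERPINB13 also with an intensity trend (limma adjusted p = 0.0516). The median of the chromosome 18 serpins was 0.27 with either filter on dim probe sets and -0.1422 to -0.0569 without 1 array, the lowest without mutant replicate 3. That of the other clades was 0.17 and 0.45 with the filter at the median and at 7, and -0.10 to -0.04 without 1 array (-0.0381 without mutant replicate 2, -0.0360 without parental replicate 3). That of chromosome 6 was 0.10 to 0.18 without 1 array. Among 33 serpins no call reversed direction in any alternative run; SERPINA7 and SERPINB9P1 gained a call in 4 and 1 of theirs. Of 34 called partner and neighbour genes 13 lost their call in at least 1 alternative. Dim signal limits 26 of the 33 serpins.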
